A study of Mus musculus with 6 samples.

Results

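The 10 genes described here encode the enzymes and the chaperone that modify, fold and cross-link collagen chains. They were taken by symbol, by a rule that holds no threshold on a measured value, and are the prolyl 4-hydroxylase genes P4ha1, P4ha2 and P4hb, the lysyl hydroxylase genes Plod1, Plod2 and Plod3, the collagen galactosyltransferase gene Colgalt1, the chaperone gene Serpinh1, and the lysyl oxidase genes Lox and Loxl2. All 10 were listed in at least 1 of the 6 deposited gene tables, which held 17710 genes between them. A filter on low counts left 13581 genes for testing, of which 9 were of the 10, and Lox was the gene that did not pass it.

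The study sequenced total RNA of mouse embryonic stem (ES) cells and mouse extraembryonic endoderm (XEN) cells, both grown without feeder cells, and by its title asks about the metabolism and mitochondria of XEN cells. The 3 ES libraries (A, B and C) came from cells of strain 129/Ola kept on gelatin in N2B27-2iLIF, a serum-free medium with inhibitors and leukaemia inhibitory factor. The 3 XEN libraries came from cells of strain ICR kept in RPMI1640 with FBS, Glut and BME, as the labels spell these additions. The groups differ in strain and medium as well as in cell type, so these cannot be told apart, the labels name no line or clone, and nothing in them states that A, B and C were separate cultures. The p-values below therefore rest on a spread between libraries that may be technical. The libraries held 20675311 to 22375875 expected counts, and 3 counts, the floor used here, equalled 0.134 to 0.145 CPM (counts scaled to library size).

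The cells carried the markers of their labels. All 8 ES markers examined fell from ES to XEN cells, with Pou5f1, the pluripotency factor, at 1063 ± 17.9 CPM (SD, n = 3) in ES and 0.353 ± 0.133 in XEN cells. Klf4 fell least, from 357 ± 6.18 to 171 ± 11.0 CPM. All 8 XEN markers rose, with Dab2, an endocytic adaptor of the endoderm, at 1.17 ± 0.199 and 2525 ± 171 CPM. Lama1 of this list was at 106.5 ± 7.02 CPM in ES and 5885 ± 819 CPM in XEN cells. Of all tested genes, 46.7% were called lower and 42.0% higher in XEN cells. Fibroblasts make much of the same machinery, so their markers were read as well. Of the fibroblast list, Col1a1, Col1a2, Col3a1 and Dcn stayed at or below 0.233 CPM in every library, and Lum and Fap were in no table. Other genes of that list were not all low: summed over the 12 listed markers, the level was 9.43 to 9.94 CPM in ES and 94.2 to 118.9 CPM in XEN libraries. Of this, Fbln2, an extracellular matrix glycoprotein, took 64.1 ± 5.70 and Acta2, smooth muscle actin, 25.7 ± 5.35 in XEN cells. Tagln and Pdgfrb also rose, to 11.0 ± 1.99 and 7.68 ± 1.10 CPM in XEN cells. Of 6 fibroblast markers tested 4 rose and 2 fell, and the part of the cells behind them in the results below was not tested. The 7 trophoblast markers in the tables summed to 83.8 to 87.1 CPM in ES and 7.85 to 9.45 CPM in XEN libraries. Most of the ES sum was Tfap2c at 58.7 ± 2.33 and Eomes at 22.2 ± 0.694 CPM. Cdx2, Elf5 and Gcm1 were at or below 0.174 CPM in every ES library. Of 5 trophoblast markers tested 4 fell and 1 rose, the last being Cdx2, from 0.148 ± 0.0234 to 0.840 ± 0.169 CPM. Since these are bulk libraries, fewer cells of a type and less RNA per cell cannot be told apart.

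Collagen chains are modified in the endoplasmic reticulum before they fold. Prolyl 4-hydroxylase, built of catalytic alpha subunits and of protein disulfide isomerase (P4hb) as its beta subunit, makes the hydroxyproline that keeps the triple helix stable at body temperature. Lysyl hydroxylases (Plod1 to Plod3) hydroxylate lysines, to which Colgalt1 then adds galactose. The prolyl and the lysyl hydroxylases use iron, 2-oxoglutarate and ascorbate. HSP47, the product of Serpinh1, binds the folded helix and travels with it towards the Golgi. Lysyl oxidases, copper enzymes that act outside the cell, oxidise lysines so that chains become covalently linked. XEN cells derive from the primitive endoderm, whose parietal descendants lay down a thick basement membrane rich in type IV collagen, a network collagen that carries many hydroxylysine residues.

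All 9 genes that could be tested were higher in XEN than in ES cells, from 2.94-fold for Colgalt1 to 209.8-fold for Loxl2, and every XEN library lay above every ES library for each of them. Differences between these cells were common: edgeR's quasi-likelihood test called 88.7% of all 13581 genes at an adjusted p under 0.05, 42.0% as higher and 46.7% as lower in XEN cells, and 42.4% of genes had all XEN libraries above all ES libraries. When the same fit was tested against a change of 2-fold, 9 of 9 were called higher, while of all tested genes 42.7% were called in either direction and 19.3% as higher. The median log2 fold change of the 9 was 4.57, against -0.07 over all tested genes. Between 1.38% (Loxl2) and 14.6% (Colgalt1) of tested genes had a larger log2 fold change than a given one of the 9. The 10 genes together took 0.106% ± 0.00215 of a library's counts in ES and 1.12% ± 0.0376 in XEN cells (SD, n = 3). Lox, in contrast, was at or under the floor of 3 counts in both groups.

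**Figure D1:**
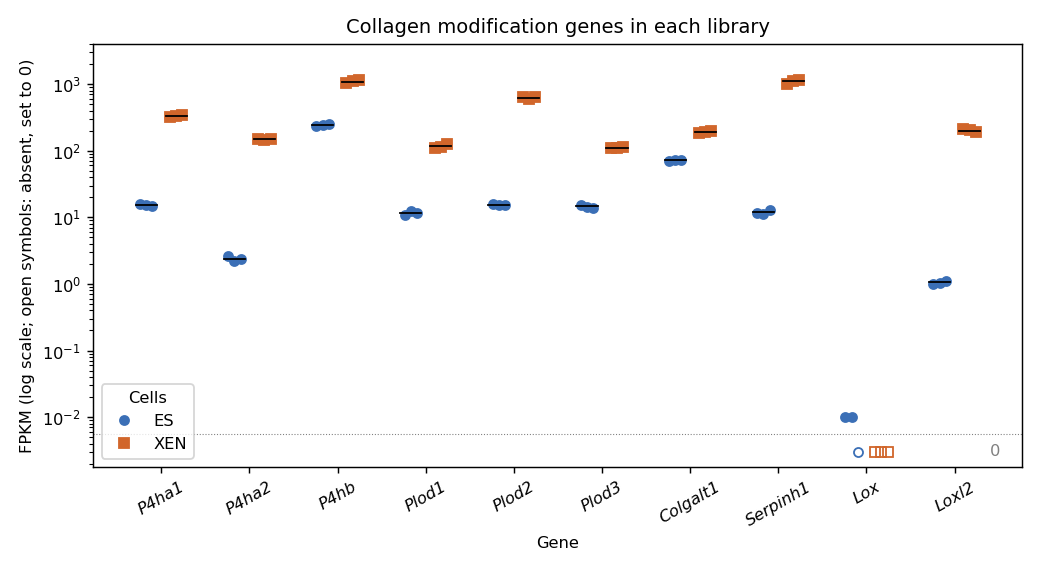
Level of each of the 10 genes in each library, as FPKM (fragments scaled to gene length and library size) on a log axis, with ES libraries as circles, XEN libraries as squares and black lines at the group means. For 9 genes the squares lie above the circles with no overlap, while Lox is at 0.01 FPKM in ES A and B and is absent from the other 4 tables, where it was set to 0 (open symbols).

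Promoter sequences are shown for the prolyl 4-hydroxylase subunits and for Serpinh1, because these genes act on the same chains. They rose by unlike amounts, from 4.84-fold for P4hb to 100.5-fold for Serpinh1, and all 9 tested genes rose. Several of the 10 genes are also textbook targets of hypoxia-inducible factors (HIF), whose binding core is ACGTG or GCGTG. Each sequence is the 250 bases before the RefSeq start on build GRCm38.p6, written 5′ to 3′ along the gene, with HIF cores of either strand in capitals.
P4ha1, chr10:59323046-59323295 (+ strand): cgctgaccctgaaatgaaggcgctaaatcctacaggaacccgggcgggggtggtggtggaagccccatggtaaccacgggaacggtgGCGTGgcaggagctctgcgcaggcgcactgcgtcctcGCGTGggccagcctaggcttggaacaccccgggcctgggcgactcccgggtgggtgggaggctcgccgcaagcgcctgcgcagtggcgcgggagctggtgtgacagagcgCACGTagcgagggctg
P4ha2, chr11:54100674-54100923 (+ strand): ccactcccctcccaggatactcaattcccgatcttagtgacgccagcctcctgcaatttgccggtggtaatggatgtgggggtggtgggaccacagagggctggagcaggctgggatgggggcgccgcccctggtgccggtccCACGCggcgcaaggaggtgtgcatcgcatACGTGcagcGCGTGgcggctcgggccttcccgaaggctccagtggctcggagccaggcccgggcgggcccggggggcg
P4hb, chr11:120573254-120573503 (- strand): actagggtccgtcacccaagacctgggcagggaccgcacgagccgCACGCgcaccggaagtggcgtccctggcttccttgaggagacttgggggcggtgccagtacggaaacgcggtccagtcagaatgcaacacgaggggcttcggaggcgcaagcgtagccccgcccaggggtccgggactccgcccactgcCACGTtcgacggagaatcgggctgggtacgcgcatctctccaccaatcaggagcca
Serpinh1, chr7:99353240-99353489 (- strand): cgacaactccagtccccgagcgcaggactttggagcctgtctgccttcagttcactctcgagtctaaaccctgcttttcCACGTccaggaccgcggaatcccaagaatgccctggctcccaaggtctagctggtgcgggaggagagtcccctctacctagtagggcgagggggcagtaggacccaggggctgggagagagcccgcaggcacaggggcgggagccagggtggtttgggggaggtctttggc
RefSeq promoter entries matched 7 of the 10 genes, with 8 windows in all since Colgalt1 has 2 overlapping ones, and had none for Plod2, Lox and Loxl2.

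A HIF core on either strand was found in 8 of the 8 windows and in 38.6% of the 32851 RefSeq promoters of the same length. The number of cores was 3 in P4ha1, 3 in P4ha2, 2 in P4hb, 1 in Plod1, 4 in Plod3, 1 in Serpinh1, and 2 and 1 in the Colgalt1 windows. Over all promoters 16.7% held 2 or more, 6.58% held 3 or more and 2.58% held 4 or more. The cores differ in their first base, and copies of ACGTG on opposite strands overlap only where CACGTG stands, which none of the 8 windows held. Among other motifs searched on both strands, the heat shock pair GAANNTTC was found in 1 of the 2 Colgalt1 windows and in 6.69% of all promoters, and the endoplasmic reticulum stress element, a CCAAT box spaced from CCACG, in none of the 8 and in 0.113% of all promoters. GC content was 50% to 70% in the 8 windows against a median of 52.4% over all promoters, and its part in the motif counts was not tested. A match is a string in the window, and no binding was measured here.

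Prolyl 4-hydroxylase came first in the order of work on the chain, and all 3 of its subunit genes rose. P4ha1 (gene 18451), the catalytic alpha subunit found in most tissues, was at 60.0, 58.2 and 55.4 CPM in ES libraries A, B and C and at 1335, 1362 and 1419 CPM in XEN libraries. The groups were far apart with no overlap, and the log2 fold change was 4.57 ± 0.04 (SE), or 23.7-fold (edgeR's quasi-likelihood test, adjusted p = 1.09e-25). P4ha2 (gene 18452), the alternative alpha subunit, was at 5.39, 4.58 and 4.91 CPM in ES and 342, 336 and 345 CPM in XEN libraries. This gene was low in every ES library and its rise was the larger of the alpha subunits, 6.10 ± 0.07 on the log2 scale or 68.7-fold (edgeR, adjusted p = 2.06e-26). P4hb (gene 18453), which also works alone as a disulfide isomerase, was at 554, 571 and 597 CPM in ES and 2640.0, 2783 and 2907 CPM in XEN libraries. It was already the most abundant of the 10 in ES cells and rose by 4.84-fold (log2 fold change 2.27 ± 0.05, edgeR, adjusted p = 3.64e-21).

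Because the subunits rose by different amounts, their balance was compared within each library, as log2 ratios of FPKM + 0.1. These correct for gene length and, for genes well above 0.1 FPKM, hardly depend on library scaling. The ratio of P4ha2 to P4ha1 was -2.58, -2.76 and -2.60 in ES and -1.12, -1.17 and -1.19 in XEN libraries. P4ha2 thus held 13.4% ± 0.798 of the summed FPKM of both alpha subunits in ES and 30.9% ± 0.571 in XEN cells. The beta subunit gene exceeded the alpha subunits less in XEN cells, since P4hb was 13.97 ± 1.11 times their summed FPKM in ES and 2.27 ± 0.0624 times in XEN cells. The summed FPKM of the alpha subunits itself went from 17.7 ± 0.782 to 480.2 ± 11.6. In 9 pairs of genes compared in this way the groups did not overlap in any, and each gave p = 0.1 in a two-sided exact permutation test over the 6 libraries (0.1 after adjustment over the 9 pairs), which is the smallest p that 3 against 3 allows. In the pair of Loxl2 and Lox, Lox was at or under 0.01 FPKM in every library. That ratio sets Loxl2 against the added 0.1, repeats the change of Loxl2 and does depend on scaling.

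The lysyl hydroxylases were at similar levels in ES cells and at unlike levels in XEN cells. Plod2 (gene 26432), the enzyme that acts on lysines of the telopeptides, was at 53.2, 52.4 and 52.7 CPM in ES and 2371, 2247 and 2401 CPM in XEN libraries. Its ES libraries were the tightest of any of the 9 genes, with a coefficient of variation of 0.779%, and its rise was 44.3-fold (log2 fold change 5.47 ± 0.03, edgeR, adjusted p = 7.82e-27). Plod1 (gene 18822), which hydroxylates lysines in the helical part of the chain, was at 32.6, 37.4 and 35.3 CPM in ES and 361, 376 and 423 CPM in XEN libraries. This gene varied most among XEN libraries, with library C the highest and a coefficient of variation of 8.32%, and rose 11.0-fold (log2 fold change 3.46 ± 0.09, edgeR, adjusted p = 7.29e-14). Plod3 (gene 26433), whose enzyme also glucosylates hydroxylysine and is needed for type IV collagen secretion, was at 47.1, 43.9 and 42.0 CPM in ES and 360.4, 369 and 377 CPM in XEN libraries. Its libraries were well separated and it rose 8.33-fold (log2 fold change 3.06 ± 0.05, edgeR, adjusted p = 4.27e-23).

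Per length, the 3 genes shared the family's transcripts almost evenly in ES cells, with Plod2 at 37.1% ± 0.646, Plod3 at 35.0% ± 1.75 and Plod1 at 27.9% ± 1.86 of their summed FPKM. In XEN cells Plod2 alone took 73.4% ± 0.982, while Plod1 took 13.6% ± 0.822 and Plod3 13.0% ± 0.372. The sum over the family was 41.7 ± 0.741 FPKM in ES and 855 ± 26.9 FPKM in XEN cells. The log2 ratio of Plod2 to Plod1 moved from 0.41 ± 0.11 to 2.43 ± 0.11 and that of Plod2 to Plod3 from 0.09 ± 0.08 to 2.50 ± 0.05 (SD, n = 3). The ratio of Plod3 to Plod1 was 0.52, 0.22 and 0.24 in ES and -0.01, -0.03 and -0.17 in XEN libraries, the smallest move among the 9 pairs at -0.40 ± 0.11 (SE). Of these, Plod3 counts were not all whole numbers, so a part of its reads was shared with other gene models by the authors' counting.

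The Plod2 gene gives transcripts with and without an alternatively spliced exon. The deposited gene length of Plod2 differed between the groups, but whether this exon has a part in that was not tested. The sequence of the exon is shown. In the GENCODE vM21 annotation of GRCm38 it is coding exon 14 of 20 of the longer form, it is 63 bases long, and the coding sequence is 2274 bases with it and 2211 without.
Plod2 alternative exon, chr9:92601985-92602047 (+ strand): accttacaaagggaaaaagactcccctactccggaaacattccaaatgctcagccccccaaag
RSEM, which the submitters' notes name, reports a gene length that weights the transcripts by their abundance. That length was 3672.95, 3672.50 and 3670.88 bases in ES and 3666.02, 3665.46 and 3664.97 bases in XEN libraries. The groups did not overlap and the mean was 6.6 bases shorter in XEN cells (two-sided exact permutation test, p = 0.1, the smallest possible), so on that weighting the shorter of the 2 Plod2 transcripts in the authors' reference had a larger share in XEN cells. Lengths of the single transcripts in that reference were not used here, and no share per transcript is given. Whether the shorter one is the form without the exon shown was not tested. Of the other 8 tested genes, P4hb, Plod1, Plod3 and Colgalt1 had 1 transcript each, so their deposited lengths could not differ. The lengths of P4ha1, P4ha2, Serpinh1 and Loxl2 overlapped between the groups.

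**Figure D2:**
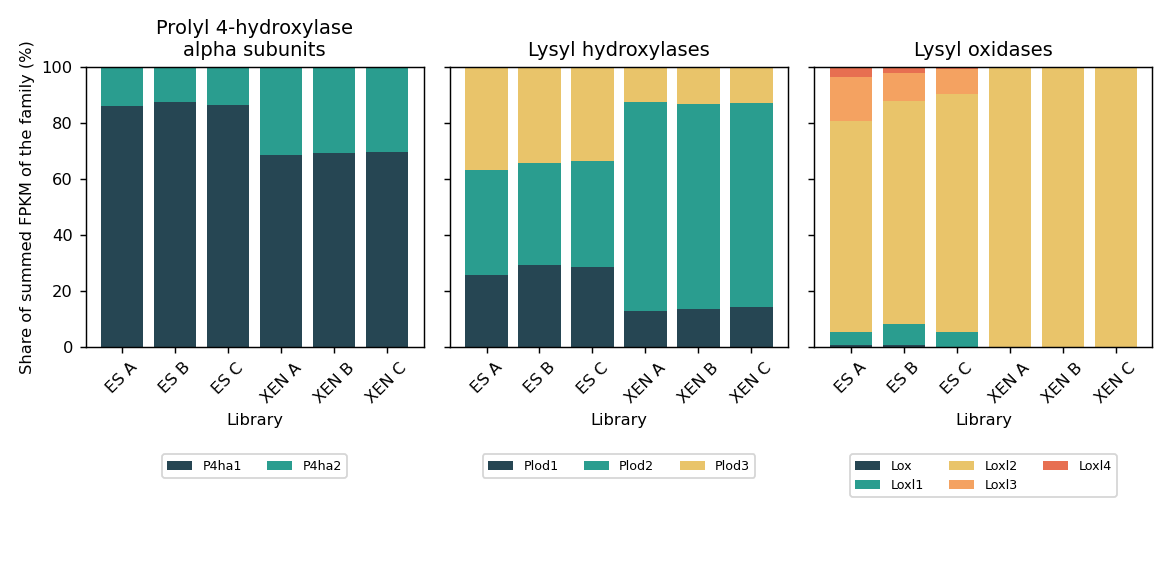
Share of the summed FPKM of each enzyme family taken by each gene, in percent, with 1 stacked bar per library for the prolyl 4-hydroxylase alpha subunits (left), the lysyl hydroxylases (middle) and the lysyl oxidases (right). Within each group the 3 bars are close, and from ES to XEN libraries the P4ha2 share goes from 13.4% to 30.9%, the Plod2 share from 37.1% to 73.4% and the Loxl2 share from 79.8% to 99.86%.

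Colgalt1 (gene 234407), the galactosyltransferase that follows the lysyl hydroxylases, was at 205, 214 and 214 CPM in ES and 608, 618 and 636 CPM in XEN libraries. It had the smallest rise of the 9, 2.94-fold (log2 fold change 1.56 ± 0.03, edgeR, adjusted p = 2.30e-19), and still exceeded a change of 2-fold (glmTreat, adjusted p = 1.45e-12). Relative to Plod3, whose enzyme adds the next sugar, the log2 ratio of Colgalt1 was 2.29 ± 0.12 in ES and 0.79 in each XEN library. Colgalt2, the other galactosyltransferase gene, had 3 counts in ES A, none in ES B and C, and 0.556 ± 0.0889 CPM in XEN cells.

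Serpinh1 (gene 12406), the collagen chaperone, was at 24.1, 22.9 and 26.1 CPM in ES and 2257, 2473 and 2615 CPM in XEN libraries. It rose 100.5-fold (log2 fold change 6.65 ± 0.08, edgeR, adjusted p = 1.16e-20), more than any other of the genes that act inside the cell. On the scale of FPKM it was at 11.9 ± 0.772 in ES cells, rank 5608 among named genes, and at 1095 ± 82.3 in XEN cells, rank 46. Its log2 ratio to P4hb went from -4.36 ± 0.07 to 0.00 ± 0.04, which puts the chaperone and the isomerase at the same level in XEN cells.

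Loxl2 (gene 94352), a lysyl oxidase that acts on type IV collagen, had the largest rise of the 9 genes. It was at 4.84, 5.01 and 5.48 CPM in ES and 1119, 1075 and 1029 CPM in XEN libraries. No value of one group came near the other, and the change was 209.8-fold (log2 fold change 7.71 ± 0.06, edgeR, adjusted p = 3.43e-27). Lox (gene 16948), the founding member of the family and the main oxidase of fibrillar collagen, had 1 count each in ES A and B and was absent from the other 4 tables, where its count was set to 0. With both groups at or under 3 counts no fold is given, and a difference was not detectable at this depth (without the filter, edgeR's adjusted p = 0.239).

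Loxl2 accounted for 79.8% ± 4.84 of the lysyl oxidase FPKM in ES and 99.86% ± 0.00794 in XEN cells, with the family sum at 1.32 ± 0.01 and 201 ± 8.24 FPKM. Of the other 3 lysyl oxidase genes only Loxl3 passed the filter. It was at 0.596 ± 0.203 CPM in ES and 1.05 ± 0.0641 CPM in XEN cells (log2 fold change 0.82, edgeR, adjusted p = 0.0138), a call that DESeq2 did not make (adjusted p = 0.077) and that ended without ES library B (edgeR, adjusted p = 0.066) or C (adjusted p = 0.067). Loxl1 had 4, 7 and 5 counts in ES and 1, 1 and 0 in XEN libraries. Loxl4 had 5, 4 and 1 counts in ES and 3, 2 and 2 in XEN libraries. Another 2 unnamed gene models carried the orthology term of Loxl2 to Loxl4: both had 0 counts in every ES library, and they had 25, 11 and 10 and 223, 459 and 154 counts in XEN libraries. Summed into Loxl2, they moved its log2 fold change to 7.73. Loxl2 counts were not all whole numbers either.

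**Figure D3:**
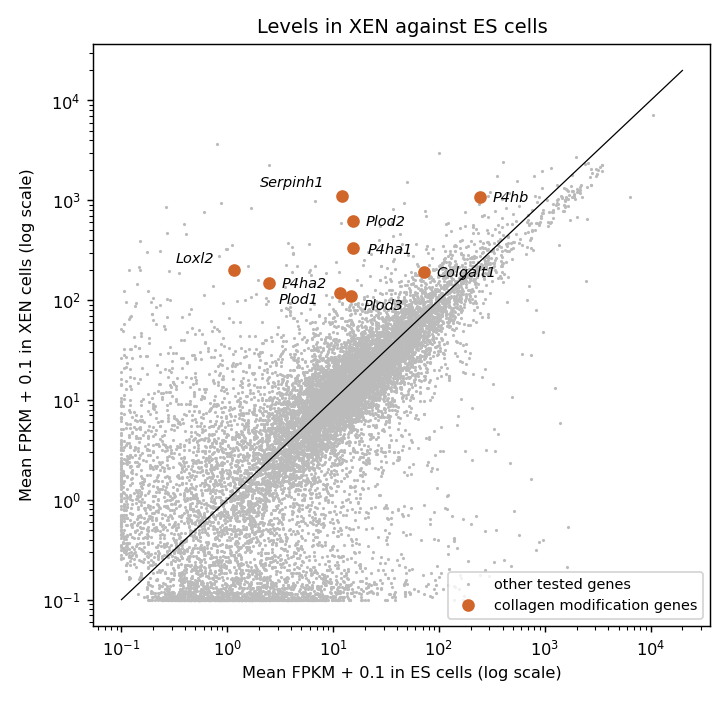
Mean FPKM + 0.1 of every tested gene in ES (horizontal) and XEN cells (vertical) on log axes, with the 9 tested collagen modification genes in orange, other genes in grey and a line of equal level. All 9 lie above the line, from Colgalt1 nearest to it to Loxl2 and Serpinh1 farthest from it.

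The order of the genes by FPKM was different in the 2 kinds of cell. In ES cells P4hb led at 246.5 ± 8.76 FPKM, followed by Colgalt1 at 71.5 ± 1.60. Behind them came Plod2 (15.5 ± 0.139), P4ha1 (15.3 ± 0.662), Plod3 (14.6 ± 0.888), Serpinh1 (11.9 ± 0.772) and Plod1 (11.6 ± 0.776), and then P4ha2 (2.37 ± 0.193) and Loxl2 (1.05 ± 0.0611). Neighbours whose libraries overlapped were Plod2 with P4ha1, P4ha1 with Plod3, and Serpinh1 with Plod1, so the order within these pairs is not set by the data. In XEN cells Serpinh1 (1095 ± 82.3) and P4hb (1090.0 ± 53.9) overlapped at the top, followed by Plod2 (628 ± 19.6) and P4ha1 (332 ± 10.5). Loxl2 (201 ± 8.22) and Colgalt1 (192 ± 4.52) overlapped next, P4ha2 stood at 148.5 ± 1.74, and Plod1 (117 ± 9.70) and Plod3 (111 ± 2.71) overlapped at the end. Among named genes the rank of Plod2 went from 4747 to 105, that of P4ha1 from 4782 to 196, that of Loxl2 from 10602 to 363, and that of P4hb from 264 to 48.

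The collagens on which these enzymes act were read next. Counts of calls in these and the later lists stand beside 42.0% of all tested genes called higher and 46.7% called lower. Col4a1 and Col4a2, the chains of the ubiquitous type IV network, had log2 fold changes of 10.37 ± 0.10 and 10.67 ± 0.13, larger than that of any of the 9 genes. The summed FPKM of P4ha1 and P4ha2 was 16.3 ± 0.744 times that of Col4a1 and Col4a2 in ES and 0.344 ± 0.0165 times in XEN cells. For the 3 lysyl hydroxylases the ratio was 38.3 ± 2.16 and 0.611 ± 0.0168, and for Serpinh1 it was 11.0 ± 1.53 and 0.784 ± 0.0702. Per type IV chain transcript the enzyme and chaperone transcripts were thus fewer in XEN cells, although each was higher in itself. The ES ratios rest on a small denominator, with Col4a1 at a mean of 0.78 and Col4a2 at 0.31 FPKM. In XEN cells these chains were at 942.6 and 457.4 FPKM, and the lower ratios follow from this larger rise. Col18a1, another collagen outside the fibril group, was at 10.64 FPKM in ES cells, so the ES ratios do not give enzyme per collagen substrate. Of 6 tested genes in the list of network and other non-fibril collagens, 3 rose and 1 fell. The one that fell was Col18a1, which carries endostatin, at 50.5 ± 2.24 CPM in ES and 3.26 ± 0.719 in XEN cells. Of 5 fibril collagens tested 2 rose and 3 fell. Col27a1, a minor fibril collagen, went from 1.43 ± 0.153 to 191 ± 9.64 CPM, and Col5a1, which nucleates fibrils, from 6.83 ± 0.313 to 0.252 ± 0.194 CPM.

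Other genes of proline modification mostly rose with the 10. Of 8 tested, 7 rose, none fell and P4htm did not pass (adjusted p = 0.106 by edgeR), although P4htm was called lower with upper-quartile or no composition factors. The median log2 fold change was 1.72, against -0.07 over all tested genes. P3h2, a prolyl 3-hydroxylase of basement membrane collagen, reached 72.1 ± 2.54 CPM in XEN cells from a single count in ES C. The ratio of its summed counts was 4975 (exact 95% interval 892 to 196500, counting error only). P3h4, a complex partner of the P3h3 and Plod1 enzymes, was at 2.07 ± 0.237 and 82.0 ± 5.44 CPM, and Ppib, the cyclophilin that isomerises prolines, at 169 ± 5.19 and 359 ± 15.1 CPM. P4ha3, the remaining alpha subunit gene, had 1 count in ES and 211 counts in XEN libraries, a ratio of 232 (41.2 to 9207).

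Of 8 tested genes of collagen folding and glycosylation, 6 rose and 1 fell, and the median of their log2 fold changes was 1.63. Creb3l1, a membrane-bound transcription factor of collagen-secreting cells, rose from 2.13 ± 0.0712 to 137 ± 4.65 CPM and Rcn3, a calcium-binding protein of the secretory pathway, from 5.69 ± 0.232 to 310.3 ± 39.1 CPM. The one that fell was Fkbp10, the prolyl isomerase linked to telopeptide lysine hydroxylation by Plod2, at 5.17 ± 0.0954 in ES and 1.28 ± 0.259 CPM in XEN cells, so it moved against Plod2. All 10 tested members of the protein disulfide isomerase family rose (median 2.01), among them Pdia3 from 589 ± 13.3 to 2441 ± 83.0 CPM and Txndc5 from 78.7 ± 3.98 to 560.3 ± 14.2 CPM. P4hb, the family's beta subunit of prolyl 4-hydroxylase, was thus near that median with its 2.27.

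Of 12 tested genes of collagen export, 11 rose and 1 fell with a median of 1.05, or 10 rose and 1 fell with upper-quartile or no composition factors. Kdelr3, which returns chaperones to the endoplasmic reticulum, rose from 13.1 ± 1.10 to 332.5 ± 10.9 CPM, while Klhl12, a ubiquitin ligase adaptor for large COPII carriers, fell from 34.3 ± 1.87 to 26.6 ± 0.799 CPM. Of 4 tested procollagen processing genes 3 were lower and 1 was higher in XEN cells, beside 46.7% and 42.0% of all tested genes. Pcolce and Pcolce2, enhancers of procollagen C-proteinase, fell from 131 ± 0.717 to 1.84 ± 0.508 and from 35.9 ± 0.910 to 1.07 ± 0.109 CPM, whereas Bmp1, that proteinase and an activator of lysyl oxidase, rose from 0.402 ± 0.201 to 85.6 ± 2.20 CPM. A last list held genes of type IV network linking and collagen receptors, and of its 4 tested genes 3 rose and 1 fell. Pxdn, the peroxidase that forms the sulfilimine bonds of that network, rose from 0.708 ± 0.0692 to 389 ± 32.6 CPM. The one that fell was Ddr2, a collagen receptor, from 8.07 ± 0.982 to 0.064 ± 0.072 CPM.

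**Figure D4:**
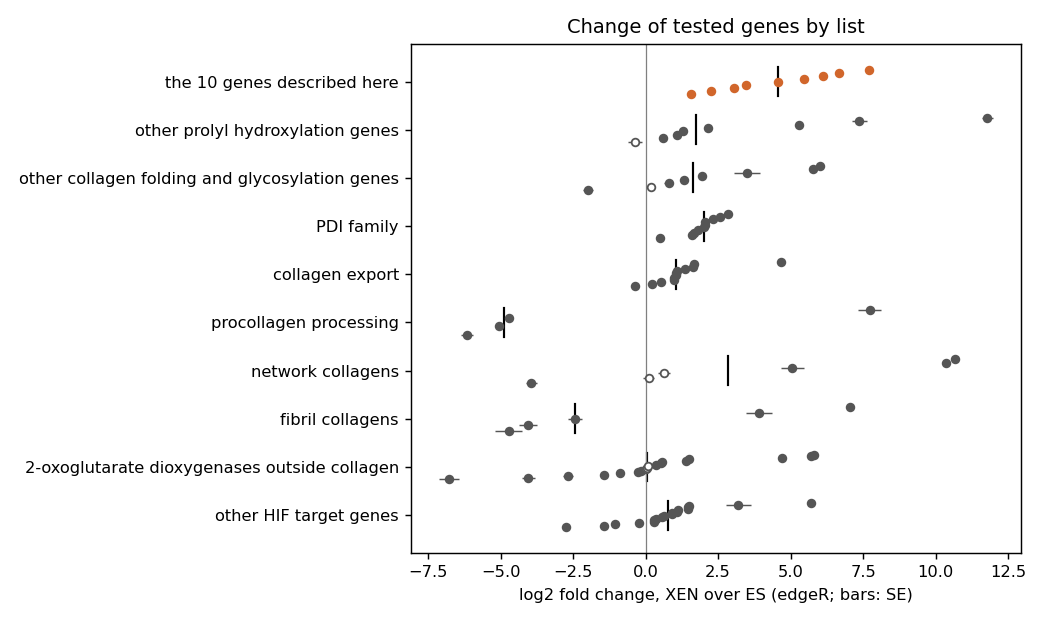
Log2 fold change of XEN over ES cells for each tested gene (points, with SE bars) in the 10 genes described here (orange) and in related lists (grey), with black ticks at the list medians and open points for genes that were not called. The 9 tested genes lie between 1.56 and 7.71 with a median of 4.57, above the medians of the other lists, and points of genes with 3 or fewer counts in a group, such as P3h2, P4ha3, Colgalt2, Col15a1 and Col5a2, depend on the prior count.

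The hydroxylases need iron and ascorbate, and lysyl oxidases need copper. Of 12 tested genes that supply them, 7 rose and 4 fell, or 6 rose and 4 fell with upper-quartile or no composition factors. Slc23a1, an ascorbate transporter, rose from 0.248 ± 0.137 to 36.5 ± 1.08 CPM, and Slc23a2, its more widely expressed relative, was at 89.3 ± 1.67 and 78.0 ± 5.89 CPM. Among the iron genes Tfrc, the transferrin receptor, fell from 377 ± 15.6 to 79.3 ± 6.06 CPM. The ferritin genes rose, Ftl1 from 2.00 ± 0.968 to 2072 ± 106 CPM and Fth1 from 370 ± 7.05 to 1038 ± 43.7 CPM. Ftl1 had 37.03, 28.06 and 71.06 counts in the ES libraries. These are not whole numbers, so a part of its reads was shared with other gene models. The part of this sharing in the low ES level and in the rise of Ftl1 was not tested. Dioxygenases that use the same cofactors on other substrates were split, with 8 higher, 7 lower and 3 not called of 18 tested and a median of 0.06 (8 lower with upper-quartile or no composition factors). Ogfod2 and Egln3 were among the higher ones, at 8.31 ± 1.58 against 460.3 ± 20.7 CPM and 1.91 ± 0.129 against 99.3 ± 5.91 CPM, and Phyh, an enzyme of phytanic acid breakdown, among the lower ones at 60.1 ± 0.233 against 0.537 ± 0.251 CPM.

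Other textbook HIF targets, a list that shares Egln1, Egln3, Kdm3a and Slc2a1 with the lists above, were 14 higher and 4 lower of 18 tested, or 13 higher and 4 lower with upper-quartile or no composition factors. Their median log2 fold change was 0.78, and of all tested genes 42.0% were called higher and 46.7% lower. Ldha, lactate dehydrogenase, rose from 645 ± 15.7 to 1377 ± 58.9 CPM, while Pdk1, which restrains pyruvate oxidation, fell from 99.2 ± 2.36 to 14.8 ± 0.597 CPM and Kdm3a, a histone demethylase, from 265 ± 4.64 to 96.7 ± 3.25 CPM. Of the 10 genes, P4ha1, P4ha2 and Plod2, taken here as HIF targets, had log2 fold changes of 4.57, 6.10 and 5.47. Within the list of other targets only Egln3, at 5.70 ± 0.07, exceeded P4ha1. Lox, also counted among HIF targets, had 2 counts summed over ES and 0 over XEN libraries and was not tested. Car9 of the list, with 31 summed counts in ES and 0 in XEN libraries, was not tested either.

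For each gene the nearest pattern among named genes was found as the smallest root mean square distance of log2 CPM over the 6 libraries, a measure that combines level and change. P4hb was nearest to Pdia3 (distance 0.14) and Colgalt1 to Pdia4 (0.11), both of the disulfide isomerase family. P4ha1 and Plod2 shared the nearest gene Lgmn, which encodes the lysosomal protease legumain, at 67.0 ± 3.64 CPM in ES and 1642 ± 80.5 in XEN cells, with distances of 0.25 and 0.44. The nearest genes of the others were Dusp9 for P4ha2 (0.21), Ctsz for Plod1 (0.21), Galk1 for Plod3 (0.14), Podxl for Serpinh1 (0.36) and Flrt3 for Loxl2 (0.60). Loxl2 had the largest distance of the 9, so no named gene followed its levels as closely as the others were followed.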

How the data were processed

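The data were 6 gene tables, 1 for each of 3 ES and 3 XEN libraries, made from total RNA and read on a BGISEQ-500 machine. The submitters' processing notes name Bowtie2, RSEM, DESeq2 and the mm9 build, with no versions or roles. The deposited tables hold expected counts, FPKM as the authors scaled it, and a length per gene. Where a table lacked a gene, its count was set to 0.

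Expected counts were rounded. Genes kept by filterByExpr were scaled by TMM and tested by edgeR's robust quasi-likelihood fit (edgeR 4.0.16, R 4.3.3) and, against 2-fold, with glmTreat, with Benjamini-Hochberg adjustment at 0.05 over all tested genes and group as the only term. The common biological coefficient of variation was 4.75%. Standard errors of log2 fold changes come from log2 CPM with a prior count of 2. Ratios between genes used FPKM + 0.1 and exact permutation tests over all arrangements of the libraries. Exact intervals of count ratios were binomial (scipy 1.17.1). Intervals and the floor of 3 counts cover counting error only. The scripts were tested on simulated data. No pair of libraries agreed within sampling noise (chi-square over its degrees of freedom at least 2.44).

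The 10 genes and all lists were chosen with earlier results of these data known. Of each related list, the rule named up to 2 called genes per direction, those that moved most and reached 5 CPM in a group, and the most abundant, and for each of the 10 genes the nearest by log2 CPM. The text gives a part of them. P4ha3, P4htm, Colgalt2, Loxl1, Loxl4, Slc2a1, Col15a1, Col5a2, Car9 and Fth1 are named outside the rule, after their values were seen. So are the fibroblast genes Col1a1, Col1a2, Col3a1, Dcn, Lum, Fap, Tagln and Pdgfrb, the trophoblast genes Cdx2, Elf5 and Gcm1, and Klf4. Alternatives were other scalings, filters, tests, pseudocounts and gene models, replicate letter as a block, and leaving out each library.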

Additional observations from a re-analysis of the deposited data

How the results depend on the processing

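The 9 of 9 calls were made under every alternative run, as were the 9 of 9 calls beyond 2-fold under those run for them, and no gene named by the rule reversed. The changes of the 9 ratios between genes kept their sign, while their p could not have passed 0.05 under any alternative. The family shares have no test. Log2 fold changes ranged from 4.35 to 4.59 for P4ha1, 5.47 to 6.16 for P4ha2, 2.13 to 2.31 for P4hb, 3.22 to 3.51 for Plod1, 5.25 to 5.50 for Plod2, 2.85 to 3.10 for Plod3, 6.41 to 6.71 for Serpinh1, 6.62 to 7.76 for Loxl2 and 1.41 to 1.57 for Colgalt1. The lowest values of P4ha2 and Loxl2 are those on log2(FPKM + 1), a scale that understates the change of low genes. Of the genes named by the rule only Loxl3 lost its call, as given above. Upper-quartile factors moved the median log2 fold change of all genes from -0.07 to -0.21, and no composition factors to -0.20. Such factors shift all genes alike, the 9 included. The letters A, B and C did not pair the libraries (correlations of deviations 0.033, 0.008 and 0.020). With the replicate block 5682 genes were called higher and 6318 lower, against 5707 and 6337 without it, and 9 of 9 calls were made. Paired by letter, each ratio gave p = 0.25 in an exact sign-flip permutation test, the smallest that 3 pairs allow. Leaving out each library, all 9 calls were made each time. Summing the unnamed models into Loxl2, and leaving libraries out of the family shares, were chosen after seeing the data. Depth limited Lox, Loxl1 and Loxl4.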
